A study of Caenorhabditis elegans with 2 samples.

Results

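The 72 histone genes of Caenorhabditis elegans were examined for regions of anti-GFP ChIP-seq signal in young adult worms with tagged SDZ-38. They are all of the protein-coding genes named his- and a number in the RefSeq annotation of the genome WBcel235, and they make up 72 of 19971 nuclear protein-coding genes. The other 19899 genes serve as the background throughout. Chromatin was taken from whole young adult hermaphrodites of strain OP543, at 64 h after the animals were synchronized by starving L1 larvae. The strain stably carries a transgene that encodes SDZ-38 fused at its C-terminus to GFP and FLAG, and all libraries described here come from this 1 group, as 2 biological replicates. The description names an anti-GFP antibody, while the antibody field reads sdz-38. A library from worms without the tag is not analysed here, and whole animals give no view of which tissue a region comes from. The authors' lists name regions and not the protein that caused them, so "region" below means an entry of a list and not a proven binding site.

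Core histones H2A, H2B, H3 and H4 form the protein spool of the nucleosome, around which DNA is wound, and linker histone H1 binds where the DNA enters and leaves it. In animals most core histone genes are present in many copies, lie in clusters and are transcribed chiefly in S phase, when new DNA has to be packed. Histone H3.3 is a variant that replaces H3 outside of DNA replication, and its genes usually stand alone.

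By RefSeq product name, the 72 genes encode H2A (17 genes), H2B (16), H3 (15), H4 (16), H3.3 (5: his-69, his-70, his-71, his-72 and his-74) and the linker histone H1 (1: his-24). A further 2 genes, his-39 and his-73, carry the product name of a histone-domain protein and are only 204 and 141 bp long. Neighbouring genes with 5′ ends within 10 kb (10000 bp) were grouped, which gave 14 clusters with 67 genes and 5 single genes. Within the clusters, 14 pairs of H4 and H3 genes and 16 of H2A and H2B genes pointed away from each other. These 30 pairs lay across a short intergenic stretch with a median length of 258 bp (at most 327 bp). The H4 gene his-67 and the H2A gene his-68 also point away from each other. They are not among the 30, as only pairs of those kinds were counted. For 65 of the 72 genes the annotated 5′ end is the first base of the coding sequence, so the true transcription start lies some way upstream of the position used. This was so for 4729 of the other genes.

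Of the 2 replicate lists, that of replicate 1 held 17743 regions and that of replicate 2 held 12648. The pooled list, made by the authors from both replicates together, held 1242. The optimal list, cut by the irreproducible discovery rate, a measure of how well ranks repeat between lists, held 102. Which lists were compared for it is not stated here. Each region has a summit and a signal value, a score of the authors on an unstated scale, which is used here only to rank regions within its own list. Median signal values were 16.5 in replicate 1, 15.5 in replicate 2 and 44.1 in the pooled list, and X held 473 of the 1221 nuclear pooled regions. A gene was counted when the distance from its 5′ end to a summit was at most 1000 bp.

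Replicate 1 had such a region at 25 of 72 histone genes, or 34.7% (exact Clopper-Pearson 95% interval 23.9% to 46.9%), against 31.6% of the other genes. Replicate 2 had one at 12 histone genes, or 16.7% (8.92% to 27.3%), against 23.9% of the other genes. Both replicates had one at 9 histone genes, or 12.5% (5.88% to 22.4%), against 11.9% of the other genes. At this distance the background value lay inside each of these 3 intervals. With a limit of 250 bp replicate 1 reached 13 histone genes (18.1%), against 9.58% of other genes, and replicate 2 reached 2 (2.78%), against 7.16%. No intervals were made at 250 bp. The nearness to the background is therefore stated for the 1000 bp limit only and need not hold at other settings. The pooled list had a region at 5 histone genes, or 6.94% (2.29% to 15.5%), against 2.97% of the other genes, also inside the interval. The optimal list had none (0 of 72, interval 0% to 4.99%), against 0.206% of the other genes.

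Of the 28 histone genes with a region in at least 1 replicate, 16 had it in replicate 1 only (57.1%), 3 in replicate 2 only (10.7%) and 9 in both (32.1%). Of the 8676 such other genes, 45.1% had it in replicate 1 only, 27.6% in replicate 2 only and 27.3% in both, so incomplete overlap of the replicates was common to both groups. The remaining 44 histone genes had none. The list of replicate 1 was also the longer one. With only as many of the strongest regions of replicate 1 as replicate 2 held, the replicate 1 count was 23 histone genes (31.9%), against 23.8% of the other genes. Neighbouring genes share regions, so genes are not independent counts. Counted once each, 22 regions of replicate 1, 11 of replicate 2 and 3 of the pooled list lay near histone genes. Per 100 kb of sequence within reach of a 5′ end this came to 26.6 regions in replicate 1, 13.3 in replicate 2 and 3.62 in the pooled list, against 18.9, 13.6 and 1.46 around the other genes.

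**Figure D1:**
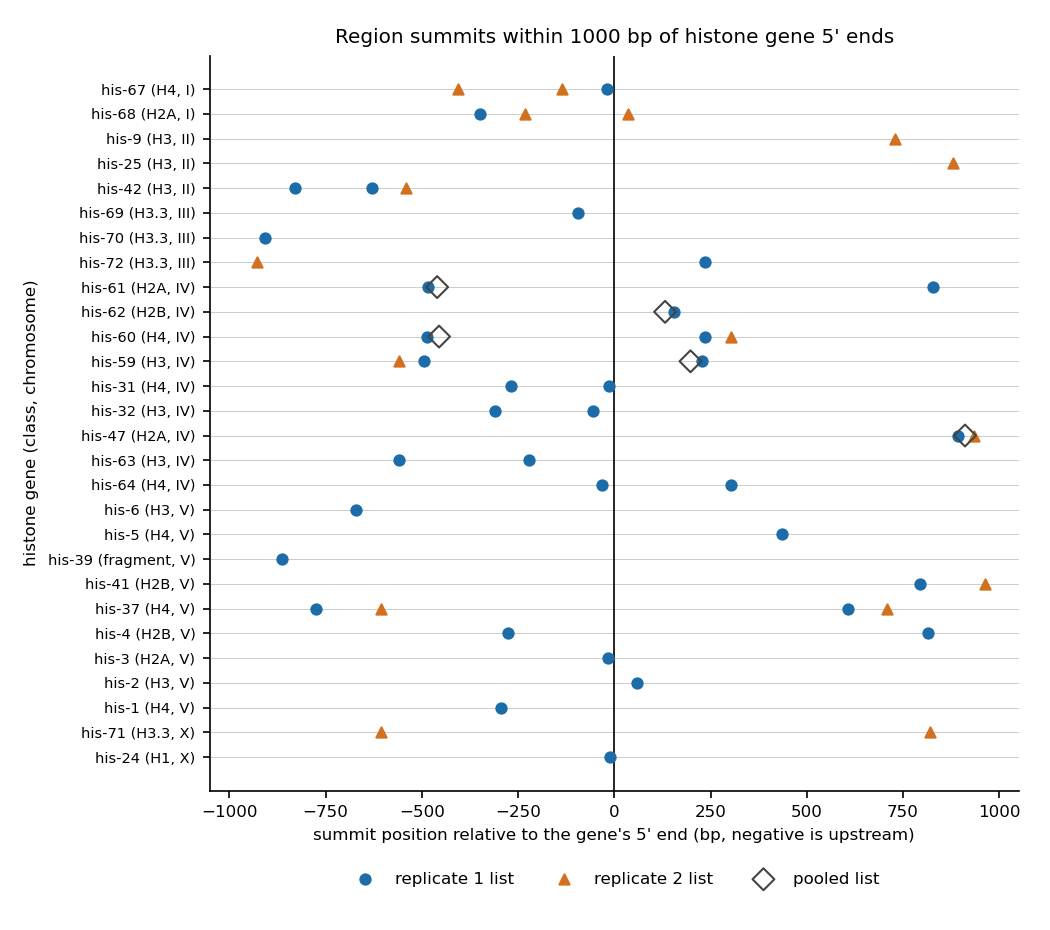
Summit positions around the 28 histone genes with a region in either replicate, in bp from the annotated 5′ end (negative is upstream), one row per gene with its class and chromosome. Circles are replicate 1, triangles replicate 2 and open diamonds the pooled list; a summit near several genes appears in each of their rows, and the rows of his-61, his-62, his-60, his-59 and his-47 are the 5 with a pooled summit.

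By class, replicate 1 had a region at 7 of 16 H4 genes, 6 of 15 H3 genes, 4 of 17 H2A genes and 3 of 16 H2B genes. Replicate 2 had one at 3 of 16 H4 genes, 4 of 15 H3 genes, 2 of 17 H2A genes and 1 of 16 H2B genes. The exact intervals of the 4 core classes overlapped in each replicate, from 4.05% to 45.7% for H2B and from 19.8% to 70.1% for H4 in replicate 1. Each of these intervals held the share of the other genes, which was 31.6% in replicate 1 and 23.9% in replicate 2. Paired genes of different classes share regions, as his-31 and his-32 do, so the classes are not independent counts either. Among the H3.3 genes 3 of 5 had a region in replicate 1 and 2 of 5 in replicate 2, with his-72 in both. The exact intervals for H3.3 held the shares of the other genes as well. The H1 gene his-24 and the short his-39 had one in replicate 1 only.

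In replicate 1 the 2 strongest regions at histone genes, and in the pooled list the strongest one, lay over the cluster of his-61, his-62, his-60 and his-59, which encode H2A, H2B, H4 and H3, on chromosome IV at 7485834 to 7488659. It was the only one of the 14 clusters in which each gene had a pooled summit within 1000 bp. The first pooled region ran from 7486449 to 7486904 with the signal value 40.2, rank 1052 of 1242, and had its summit inside the coding sequence of his-62, 132 bp from the start. The second ran from 7488219 to 7488674 with the signal value 44.7, rank 576, and had its summit inside the coding sequence of his-59, 198 bp from the start. Both ranked in the lower or middle part of the pooled list, and the nearest 5′ end of another protein-coding gene, F55G1.1, lay 5087 and 3317 bp away. The sequence within 50 bp of these summits, read from the WBcel235 (ce11) plus strand, is shown because it also holds the summits of the 2 strongest histone regions of replicate 1. Capitals mark each base at which a 31-base word begins that occurs once in the genome, counting both strands.
his-62 summit, chrIV:7486627-7486727: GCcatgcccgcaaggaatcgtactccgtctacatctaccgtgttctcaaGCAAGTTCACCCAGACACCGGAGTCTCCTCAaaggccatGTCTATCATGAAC
his-59 summit, chrIV:7488397-7488497: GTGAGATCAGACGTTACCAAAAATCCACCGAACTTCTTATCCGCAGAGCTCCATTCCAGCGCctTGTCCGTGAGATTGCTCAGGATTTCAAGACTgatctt

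In the his-62 window 46 of 101 bases are capitals, and in the his-59 window 93 of 101. The coding sequence of his-59 was 91.0% to 95.4% identical to the 14 other H3 genes (median 91.9%), and that of his-62 was 87.5% to 94.9% identical to 14 other H2B genes (median 89.8%). So the 31-base words are mostly specific to his-59 at its summit, and in his-62 they are a mixture of words of its own and words shared with other places in the genome.

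Replicate 1 held 4 regions over this cluster. Those in his-59 and his-62 had signal values of 30.95 and 27.6 and ranks 291 and 606 of 17743, the highest ranks of any histone region in that list. Another lay in the coding sequence of his-60 (signal value 21.9, rank 2420), and the weakest 828 bp downstream of the 5′ end of his-61 (15.4, rank 11327). Replicate 2 held 1 region there, in the coding sequence of his-60, with a signal value of 14.3 and rank 8730 of 12648. It overlapped the replicate 1 region of rank 2420. Neither pooled region overlapped a region of replicate 2, so in the lists at hand the pair over his-62 and his-59 is seen in replicate 1 and the pooled list.

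**Figure D2:**
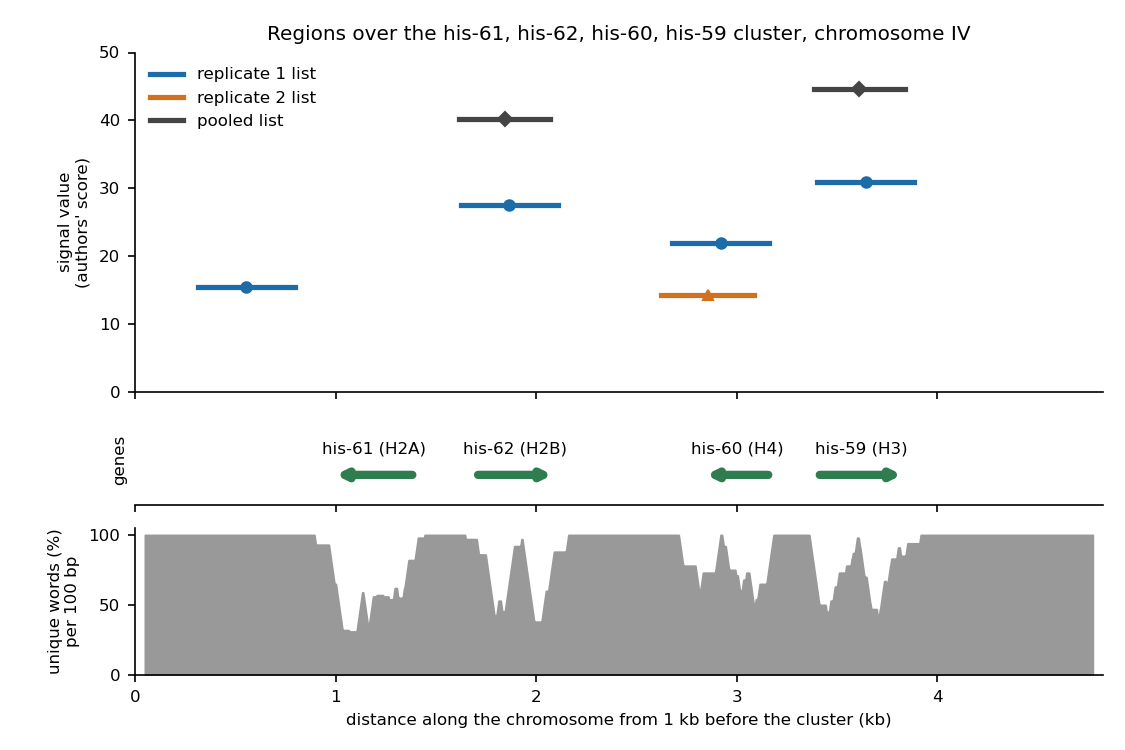
Regions over the his-61, his-62, his-60 and his-59 cluster by distance along the chromosome (kb), with bars spanning each region at its signal value (authors' score, each list on its own scale) and a marker at its summit; arrows show the genes and the lower panel the share of unique 31-base words per 100 bp. The pooled regions (40.2 and 44.7) and the replicate 1 regions of 27.6 and 30.95 lie over his-62 and his-59, while replicate 2 has its 1 region (14.3) over his-60.

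Elsewhere on chromosome IV, his-47, an H2A gene of the cluster at 11324056 to 11326998, was the other histone gene with a pooled region. The summit lay 911 bp downstream of its 5′ end, past the short gene itself and inside the gene edg-1, outside coding sequence. The pooled region had a signal value of 43.8 (rank 645), the replicate 1 region 23.8 (rank 1507) and the replicate 2 region 15.75 (rank 5866), and these 3 regions overlapped. This was the 1 place near a histone gene with overlapping regions in both replicates and the pooled list. It touches the histone list by distance only: at 500 bp the pooled count was 4 genes, without his-47.

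The cluster at 8331044 to 8336340 has 6 genes. Its inner pair, his-31 (H4) and his-32 (H3), had 2 overlapping replicate 1 regions in the stretch between them, with signal values of 17.6 and 13.8 (ranks 6806 and 15816). The 4 outer genes his-29, his-30, his-33 and his-34 had none. In the cluster at 11400415 to 11407427, his-64 (H4) and his-63 (H3) shared 2 replicate 1 regions, one in the coding sequence of his-64 (19.7, rank 4206) and one in the stretch between the pair (15.3, rank 11507). Neither cluster had a region in replicate 2, and the cluster of his-55 to his-58 had none in either replicate.

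The H4 gene his-67 and the H2A gene his-68 on chromosome I (9988452 to 9989515) had regions in both replicates. Replicate 1 had a summit 20 bp upstream of his-67 (signal value 22.2, rank 2231). Replicate 2 had its strongest histone region there, 137 bp upstream of his-67 (24.2, rank 591), and a weaker one inside the coding sequence of his-68 (16.7, rank 4530). The replicate 1 region overlapped both of them, yet no pooled region lay within 1000 bp. With a limit of 250 bp in place of 1000 bp, his-67 was the 1 histone gene with a region in both replicates.

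On chromosome II, 13 genes lie at 13817760 to 13828697. The H3 gene his-42, at one end, had replicate 1 summits 628 and 830 bp upstream (23.3, rank 1724, and 14.3, rank 14303) and a replicate 2 summit 540 bp upstream (18.6, rank 2779). The stronger replicate 1 summit fell inside the snRNA gene F08G2.10 and the gene F08G2.15. The weaker replicate 1 summit and the replicate 2 summit lay within 250 bp of F08G2.10. The part of either gene in the signal was not tested. Within the cluster, a single weak replicate 2 region (13.2, rank 11453) lay between the H3 genes his-9 and his-25, 730 and 881 bp from their 5′ ends. The other 10 genes had none.

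Chromosome V holds 27 histone genes, which are his-74, a single gene for H3.3 without a region, and the members of 5 clusters. At 9544659 to 9547607 are his-35 (H2A), his-41 (H2B) and his-37 (H4). Replicate 1 regions there had signal values of 20.7 (rank 3251) and 15.2 (rank 11806), and the replicate 2 regions overlapping them had 15.9 (rank 5700) and 19.4 (rank 2193). The first pair of regions lay inside C50F4.6, whose 5′ end was nearer (239 and 407 bp) than those of his-41 and his-37, and the second pair lay in nstp-10. At 16040144 to 16042831, his-4, his-3, his-2 and his-1 had 3 regions in replicate 1, the strongest in the coding sequence of the H3 gene his-2 (17.4, rank 7143), and none in replicate 2. At 8532715 to 8536716, 1 replicate 1 region (17.8, rank 6602) lay within reach of his-6, his-5 and his-39. The remaining 14 genes, at 8847393 to 8854053 and 8889488 to 8898539, had no region in either replicate.

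None of the 5 H3.3 genes, nor the H1 gene, had regions of both replicates that overlapped. In his-72, one of the genes for H3.3, replicate 1 had a summit outside coding sequence, 236 bp downstream of the 5′ end (20.95, rank 3054). The replicate 2 summit lay 927 bp upstream (14.0, rank 9390), where the 5′ end of rpt-6 was nearer at 479 bp, and the regions did not overlap. The H3.3 gene his-71 on X had 2 regions in replicate 2 (16.4 and 16.3, ranks 5031 and 5095), 821 bp downstream and 605 bp upstream, and none in replicate 1. his-69 and his-70 had them in replicate 1 only, at ranks 10296 and 6285. For the H1 gene his-24 on X, replicate 1 had a summit 12 bp upstream (23.3, rank 1719), inside the non-coding RNA gene M163.19, and replicate 2 had none. On X 43.5% of the other genes had a region in replicate 1 and 32.6% in replicate 2, so single regions there are common.

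Signal at histone genes was within the ordinary range of each list. The 22 replicate 1 regions had a median signal value of 17.9 (range 13.8 to 30.95), against 16.5 for 6574 regions near other genes. The 11 replicate 2 regions had a median of 16.3 (13.2 to 24.2), against 15.6 for 4740. Expressed as a position in the list, where 0% is the strongest, the median was 36.3% near histone genes and 49.8% near other genes in replicate 1, and 40.3% near histone genes and 48.1% near other genes in replicate 2. Among the 1000 strongest regions of each list were 2 of the 22 histone regions in replicate 1 (9.09%), against 5.86% of regions near other genes, and 1 of the 11 in replicate 2 (9.09%), against 8.38%. The highest nuclear values were 103.5 and 82.6, well above every histone region. The summit lay in a histone coding sequence in 5 of 22 replicate 1 regions, 2 of 11 replicate 2 regions and 2 of 3 pooled regions.

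**Figure D3:**
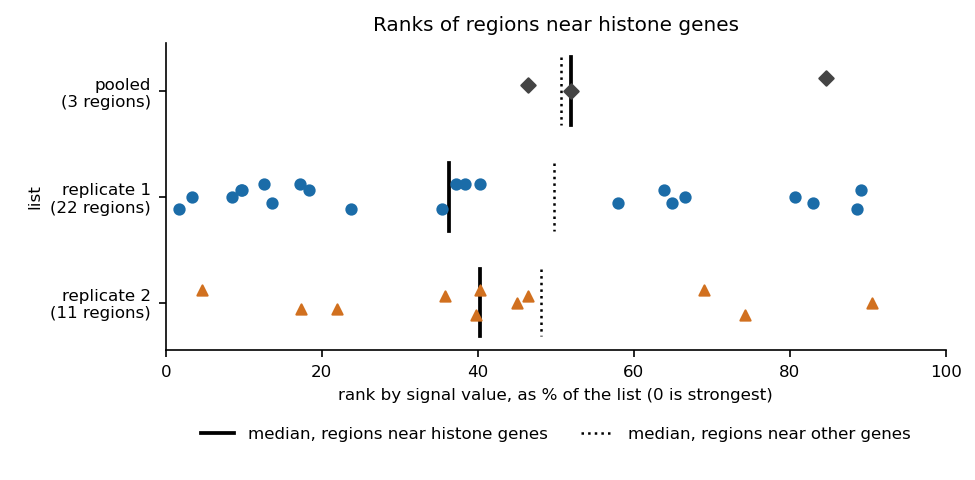
Rank of each region near a histone gene as a percent of its list (0% is strongest), for the pooled list and both replicates; points are regions, with a small vertical offset for legibility, solid lines their medians and dotted lines the medians for regions near other genes. Histone regions spread over the lists, with a median of 36.3% in replicate 1 (49.8% near other genes) and of 40.3% in replicate 2 (48.1% near other genes).

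Histone genes differ from most other genes in how much of their sequence is repeated. Within 1000 bp of the 5′ end, a median of 28.8% of 31-base words were found at a single place in the genome for histone genes (range 0% to 99.9%), against 99.95% for other genes. The share was under 50% at 41 of 72 histone genes, against 497 of 19899 other genes. A read from a repeated word has no single place in the genome, and how the authors' processing placed such reads is not stated in the sources at hand. The part of this in the counts was not tested, so the values are set side by side.

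The 28 histone genes with a region in either replicate had a median of 82.3% unique words, and the 44 with none had 14.2%. Under 50% were 4 of the 28 and 37 of the 44. The 6 genes of the cluster beginning with his-50 had no unique word within 1000 bp, and the 8 beginning with his-28 had a median of 0% and at most 33.8%. his-31 and his-32, with regions, had 87.1% and 78.0%, and the 4 outer genes of their cluster, without, had 14.9% to 19.3%. The relation is not complete, as 7 genes with at least 50% unique words had no region either: his-74 (99.75%), his-35 (97.5%), his-73 (81.6%), his-38 and his-40 (79.7% each), and his-7 and his-8.

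**Figure D4:**
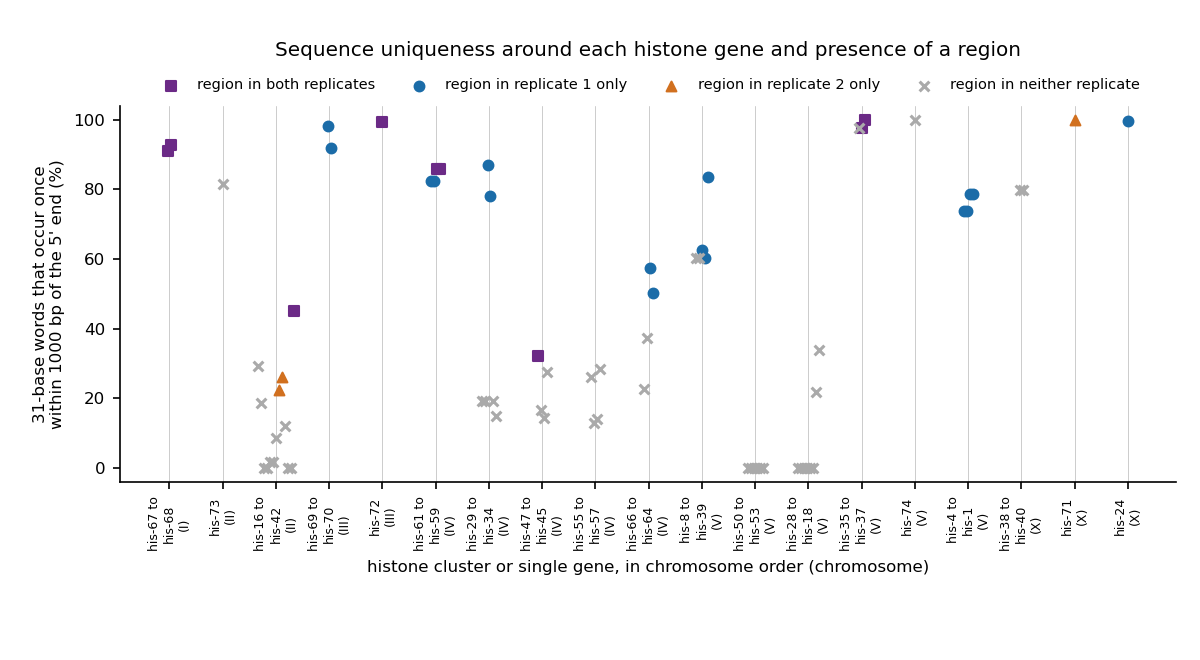
Percent of 31-base words within 1000 bp of the 5′ end that occur once in the genome, one point per histone gene, by cluster or single gene in chromosome order. Squares are genes with a region in both replicates, circles replicate 1 only, triangles replicate 2 only and crosses neither; the 44 genes with none have a median of 14.2% and the 28 with one of 82.3%.

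When histone genes were set beside other genes of similar uniqueness, a split chosen after seeing the data, the replicates differed in the middle class and had the same direction in the others. Where 50% to 90% of words were unique, 15 of 20 histone genes had a region in replicate 1 (75.0%, exact interval 50.9% to 91.3%), against 20.6% of 2567 other genes, and 2 of 20 did in replicate 2 (10%, 1.24% to 31.7%), against 15.2%. The 15 genes lie in the clusters of his-61 to his-59, his-29 to his-34, his-66 to his-64, his-8 to his-39 and his-4 to his-1. Neighbours there share regions, and 1 region alone gives his-6, his-5 and his-39. Where at least 90% were unique, 8 of 11 had one in replicate 1 (72.7%, 39.0% to 94.0%), against 34.1% of 16835 other genes, and 6 of 11 in replicate 2 (54.5%, 23.4% to 83.3%), against 25.9%. Both replicates had one at 5 of these 11 (45.5%, 16.8% to 76.6%), against 13.2% of the other genes. Of these 5, his-67 and his-68 share their regions. The genes his-41 and his-37 share regions inside C50F4.6, whose 5′ end is nearer, and his-37 has others in nstp-10. The regions of his-72 do not overlap between the replicates. The pooled list had a region at 4 of the 20 histone genes of the middle class, all of the his-61 to his-59 cluster (20%, 5.73% to 43.7%), against 1.87% of the other genes. It had a region at 0 of the 11 histone genes with at least 90% unique words, against 3.22% of other genes. Under 50% it had a region at 1 of 41, against 0.201%. Under 50%, 2 of 41 had one in replicate 1 (4.88%) and 4 of 41 in replicate 2 (9.76%), against 2.62% of other genes in each. No test was made, since histone genes in a cluster share regions and the groups are small. GC content within 1000 bp had a median of 42.3% at histone genes and 35.4% at other genes, and its part in the counts was not tested.

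**Figure D5:**
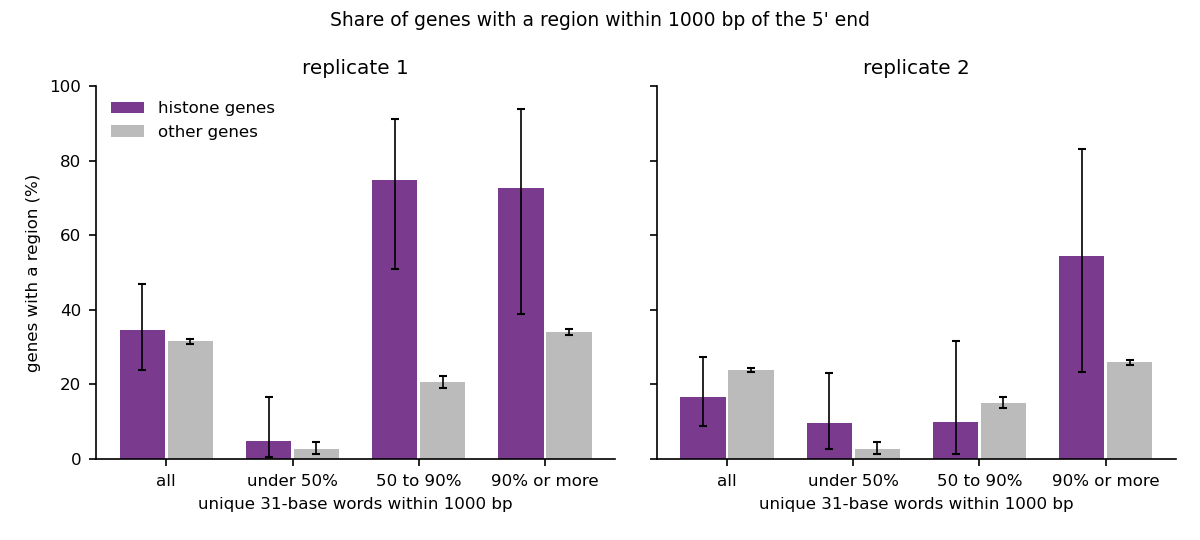
Percent of genes with a region within 1000 bp of the 5′ end in each replicate, for histone genes (dark bars) and other genes (light bars), over all genes and by the share of unique words; error bars are exact 95% binomial intervals. Over all genes the bars are 34.7% and 31.6% in replicate 1, and 16.7% and 23.9% in replicate 2; in the 50 to 90% class they are 75.0% and 20.6%, and 10% and 15.2%.

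The stretches between paired genes are where promoters of both would lie. Of the 30 stretches, 3 held replicate 1 summits (his-31/his-32, with 2, his-64/his-63 and his-3/his-4), and none held a summit of replicate 2 or the pooled list. The stretch between his-67 and his-68, which is not among the 30, held summits of both replicates (rank 2231 in replicate 1 and rank 591 in replicate 2). In the 7986 bp of the 30 stretches, the 4 replicate 1 summits came to 50.1 per 100 kb, and 2 of them are in 1 stretch. Around other genes the value was 18.9, but for all sequence within 1000 bp of a 5′ end. No such value was made for stretches between other divergent genes, so these values are not like for like. The 7986 bp are too few for the 0 in the other lists to say much. Of the 30, 17 had no unique 31-base word and 16 had at least 1 identical copy elsewhere, so that there are 20 different stretches. The his-60/his-59 stretch has 100% unique words, and the equivalent stretches of his-46/his-45 and his-56/his-55 are 85.4% and 85% identical to it with 13.6% unique words. The his-28/his-27 stretch of 238 bp is the same base for base as that of his-50/his-49. Their central parts, without 40 bases at each end, are shown for the marked cluster and for clusters without a region beside the pair, with capitals as above (WBcel235, plus strand, H4 side first).
his-60/his-59, chrIV:7488033-7488208: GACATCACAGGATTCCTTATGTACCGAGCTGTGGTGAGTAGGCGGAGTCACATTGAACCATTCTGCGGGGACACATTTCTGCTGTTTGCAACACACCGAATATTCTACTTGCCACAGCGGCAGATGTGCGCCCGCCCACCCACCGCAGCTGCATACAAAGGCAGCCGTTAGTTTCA
his-46/his-45, chrIV:11326370-11326547: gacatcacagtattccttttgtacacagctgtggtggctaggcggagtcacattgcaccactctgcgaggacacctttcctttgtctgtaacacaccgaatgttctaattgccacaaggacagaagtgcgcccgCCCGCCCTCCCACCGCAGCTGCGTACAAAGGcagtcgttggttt
his-28/his-27, chrV:8889840-8889997: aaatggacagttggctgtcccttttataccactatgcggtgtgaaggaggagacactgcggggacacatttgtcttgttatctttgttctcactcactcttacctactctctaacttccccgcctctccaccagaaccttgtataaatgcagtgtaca

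All 176 bases of the first are capitals, 31 of 178 of the second and none of 158 of the third. All 14 H4/H3 stretches shared a pair of short words close to the H4 coding start, whether or not a region lay near: AAGACTCAC at 14 to 18 bases from it and TGAGATGAA at 26 to 30, with 3 bases between them. Searched on both strands, the words were in none of the 16 H2A/H2B stretches, and in 19 (0.0955%) and 127 (0.638%) of the 300-bp promoters of the 19899 other genes. These promoters end at the annotated 5′ end, which is the coding start for only 4729 of the other genes. For the rest, bases just before the coding start could lie outside the part searched, so these shares are not a like-for-like background. Neither word contains the other. They were found by comparing the stretches and not by any region, and what binds them was not examined. The 30-base windows below, in the direction away from the H4 gene, have the words in capitals and come from pairs with a replicate 1 region near (his-60/his-59 and his-31/his-32) and without one (the others).
his-60/his-59, chrIV:7487999-7488028, plus strand: ttcagttgAAGACTCACaagTGAGATGAAg
his-31/his-32, chrIV:8333994-8334023, plus strand: ttgaattgAAGACTCACgaaTGAGATGAAa
his-46/his-45, chrIV:11326336-11326365, plus strand: attcgttgAAGACTCACaagTGAGATGAAg
his-28/his-27, chrV:8889810-8889839, plus strand: gttgaatgAAGACTCACaagTGAGATGAAg
his-14/his-13, chrII:13819945-13819974, plus strand: aattgatgAAGACTCACaagTGAGATGAAg
his-38/his-40, chrX:7309883-7309912, plus strand: gttgaataAAGACTCACaagTGAGATGAAg

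Other genes that supply and handle histones were set beside the his genes: 24 genes for linker histones, variant histones, chaperones and the histone mRNA binding protein CDL-1. Replicate 1 had a region at 10 of them (41.7%), replicate 2 at 7 (29.2%), both at 4 (16.7%) and the pooled list at 1 (4.17%), with none in the optimal list. The background shares of 31.6%, 23.9%, 11.9% and 2.97% lay inside the exact intervals, of which that of replicate 1 was 22.1% to 63.4%. The 4 genes with a region in both replicates were hcp-3, which encodes the centromeric H3, the linker histone gene hil-7, unc-85, which encodes the chaperone ASF1, and chaf-2. The last, for a subunit of the chromatin assembly factor CAF-1, was the one with a pooled region, with its summit at -140 bp from the 5′ end (44.8, rank 567). Its replicate 2 region had a signal value of 30.6 and rank 128, above every histone region of that list, and its replicate 1 region 18.3 and rank 5806. htz-1, for the variant H2A.Z, had a weak region in replicate 1 only (14.8, rank 12902). The 78 cytosolic ribosomal protein genes, with a median of 100% unique words, had a region at 50 genes (64.1%) in replicate 1, 41 (52.6%) in replicate 2 and 13 (16.7%) in the pooled list. The shares of all genes other than histone genes were 31.6%, 23.9% and 2.97%. No test of their difference from histone genes was made.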

How the data were processed

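ChIP-seq region lists of 2 biological replicates were analysed as deposited in build ce11. Per the file notes, the authors made a lenient list per replicate from its alignment and a control alignment, a pooled list from both replicates, and an optimal list by the irreproducible discovery rate procedure. The authors' signal value is a score of unstated scale. Neither aligner nor peak caller is named (not given in the sources used here), and lists of build ce10 were not used. No counts are given, so depth is unknown. Exact Clopper-Pearson 95% intervals cover counting error over genes only, and genes in a cluster share regions.

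Genes and sequences came from RefSeq WBcel235, with 1-based positions. Summits were placed relative to gene 5′ ends with Python 3.11.15, NumPy 2.4.6, pandas 2.3.3, SciPy 1.17.1 and Biopython 1.88, and plotted with matplotlib 3.10.9. Distances, word counts and gene counts were tested on simulated data. Members, lists and settings were chosen with earlier results of these data known. Named genes are those with a pooled region, the 10 with the strongest regions of each replicate, those with regions in both, his-24, his-71, his-72 and related genes with a pooled region. Other genes were named, and shared promoter words sought, after values were seen. With 1 group, no conditions were compared. Alternatives varied the distance, the side of the 5′ end, the summit rule, the list length and the replicates.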

Additional observations from a re-analysis of the deposited data

How the results depend on the processing

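With summits within 250 bp the pooled list reached 2 histone genes, replicate 1 reached 13, replicate 2 reached 2 and both replicates 1, in place of 5, 25, 12 and 9. The replicate 1 share was then 18.1%, against 9.58% of other genes. Those of the pooled list, replicate 2 and both replicates were 2.78%, 2.78% and 1.39%, against 0.804%, 7.16% and 2.25%. At 500 bp replicate 2 and both replicates reached 3 each (4.17%, against 13.4% and 5.32% of other genes). At 2000 bp they reached 22 and 14 (30.6% and 19.4%, against 39.9% and 25.8%). From 1000 bp upstream to 200 bp downstream they reached 7 and 5 (9.72% and 6.94%, against 15.3% and 6.49%). With the stronger part of each list, cut at its middle, the pooled list reached 2 and replicate 2 reached 7. These were 2.78% and 9.72%, against 1.53% and 13.3% of other genes, and the replicate 1 share was 30.6%, against 17.2%. With only as many of the strongest regions as the pooled list holds, replicate 1 reached 4, replicate 2 reached 2 and both replicates 0. These were 5.56%, 2.78% and 0%, against 2.79%, 2.94% and 0.573% of other genes. Leaving out a replicate means taking the other one's list alone, since no pooled list without it is used here. Cut to the length of the pooled list this gave 2 to 4 genes, and uncut, in place of both replicates, 12 to 25. The median position in the list of replicate 1 was 23.7% with each gene taken once by its strongest region and 30.5% at 500 bp, in place of 36.3%. In replicate 2 it was 45.7% and 35.8%, in place of 40.3%. The optimal list reached 0 histone genes in each alternative run, which the narrower settings could not change. A setting that took the coding start as the 5′ end could also change little, since both are the same for 65 of the 72 genes. Of 62 alternative values, 41 (31 planned and 10 added after seeing the data) stayed within 1.5 times the reported count or, for the median positions, within the spread between replicates, and the other 21 are those above. The cause of these changes was not tested, apart from the shorter distances and lists, which leave fewer summits by construction. No paired analysis was possible because all samples belong to 1 group. Depth is unknown, and the 2 replicates cannot be tested for a sample apart from the rest.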
